A study of Mus musculus with 6 samples.

Results

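The genes of glycolysis and of the pentose phosphate pathway were examined in activated CD8 T cells with and without maintained KLF2 expression. The 36 listed members are glucose and lactate transporters, the enzymes of both pathways, the enzymes that set the level of the phosphofructokinase activator fructose bisphosphate, the kinases of pyruvate dehydrogenase and the transcription factor Hif1a. A probe set was taken for a member when the annotation of the array gave it that gene and no other. By this rule 31 of the 36 genes were measured, by 69 of the 34945 probe sets annotated to 1 gene, out of 18193 genes in all. Gapdh, Gpi1, Pfkfb1, Eno1 and G6pdx had no probe set of their own under this rule. Of these 5, Gapdh was read only by probe sets that it shares with other genes, described below, and the other 4 were not analysed here.

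All cells came from C57BL/6 mice of 8 to 12 weeks that carry the P14 LCMV TCR transgene, whose product recognises the gp33-41 peptide of LCMV. Splenocytes were stimulated with the peptide for 48 hours, transduced with retrovirus 18 hours after its addition, and cultured for a further 48 hours in IL-2, so that cytotoxic T lymphocytes (CTL) of day 4 were compared. In the control group, evGFP CTL, the retrovirus encoded GFP alone. In the second group, GFP-KLF2 CTL, it encoded a fusion of GFP with KLF2, a transcription factor that T cells switch off when they are activated. Both groups were purified by FACS after transduction, and each had 3 biological replicates, each hybridised to 1 Affymetrix mouse 3' expression array. KLF2 was expressed from a retroviral vector, which lacks the 3' end of the Klf2 transcript that the array reads, so that the Klf2 probe set does not check the labels. RNA was measured in bulk, and fewer cells expressing a gene and less RNA per cell cannot be told apart.

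Glycolysis splits glucose to pyruvate, and activated T cells take up much glucose and release much of it as lactate even where oxygen is present. The pentose phosphate pathway branches off after the first phosphorylation of glucose. Its oxidative arm supplies NADPH, and its non-oxidative arm makes the ribose of nucleotides and returns the surplus sugar to glycolysis. HIF1 and MYC are known activators of many of these genes in CTL.

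Values are log2 intensities, 3 arrays per group, and each gene is read by its brightest probe set, the one whose mean of all 6 arrays is highest. Probe sets differ in affinity, so that levels are not compared between genes. The number of arrays limits the precision, and nothing in the labels says more of the replicates than that they are biological. A member is said to have risen or fallen where the adjusted p of limma, by Benjamini-Hochberg over 45037 probe sets, was under 0.046. With 3 arrays against 3, the smallest 2-sided p that an exact permutation test could reach is 0.1. Over all probe sets the arrays correlated at 0.993 to 0.996 within a group and 0.982 to 0.990 between groups, so that no array stood apart over the whole transcriptome. CD8 T cell markers had mean levels of 10.2 to 13.6 in evGFP and 10.1 to 13.8 in GFP-KLF2 CTL (7 genes). Cd8b1 was higher in GFP-KLF2 CTL (log2 fold change 0.45) and the other 6 did not pass. Among 28 measured markers of B, myeloid, granulocyte, erythroid, CD4 and NK cells, Zbtb7b, a CD4 lineage factor that activated CD8 T cells can also express, rose (0.45). The other 27 did not pass. At an unadjusted p under 0.05, 4 of these were higher in GFP-KLF2 CTL, 3 of them among the 5 B cell markers (Cd79a, Ms4a1 and Blnk), and Cd68, a macrophage marker, passed with the replicate block described below (adjusted p = 0.0252). The mean of the 5 B cell markers was 5.34 to 5.64 in the evGFP arrays and 5.58 to 6.01 in the GFP-KLF2 arrays. Group means of all 28 lay between 4.04 and 8.19. For Actb, the control probe set at the 3' end read 0.111 to 0.121 log2 units above that at the 5' end in evGFP arrays and 0.0773 to 0.0837 above it in GFP-KLF2 arrays. For Gapdh the same difference overlapped between the groups, at -0.179 to -0.116 in evGFP and -0.169 to -0.139 in GFP-KLF2 arrays. The part of other cells and of RNA quality in the values below was not tested.

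For most members no difference between the groups passed the threshold. Slc2a1, the main glucose transporter of activated T cells, and Pfkfb4, which helps to set the level of the phosphofructokinase activator, rose in GFP-KLF2 CTL by 0.88 and 0.49 on the log2 scale. Ldhb, a subunit of lactate dehydrogenase, and Rpia and Tkt, enzymes of the non-oxidative pentose phosphate arm, fell by 0.74, 0.48 and 0.33. The other 26 measured members did not pass, and no member differed by 2-fold or more at its brightest probe set. The counts were close to those over all genes. Of the members 9.68% fell and 6.45% rose, beside 8.35% and 6.22% of all genes. The groups did not overlap for 22.6% of members with lower and 16.1% with higher values in GFP-KLF2 CTL, beside 20.6% and 14.3% of all genes. The median log2 fold change was -0.07 over the members and -0.01 over all genes, and 19 members lay below 0 and 12 above.

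The replicate numbers were taken to pair the arrays, a pairing that the labels do not state. A model that took the number as a block called 7 members lower and 2 higher, 22.6% and 6.45% of those measured. The same fit called 12.1% of all genes lower and 8.58% higher. The 4 members added on the lower side were Pfkm, Pgd, Pdk3 and Slc16a1. Over all 69 member probe sets without the block, 7 fell and 4 rose, beside 7.58% and 5.47% of all probe sets of 1 gene. These 11 probe sets belonged to the same 5 genes.

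**Figure D1:**
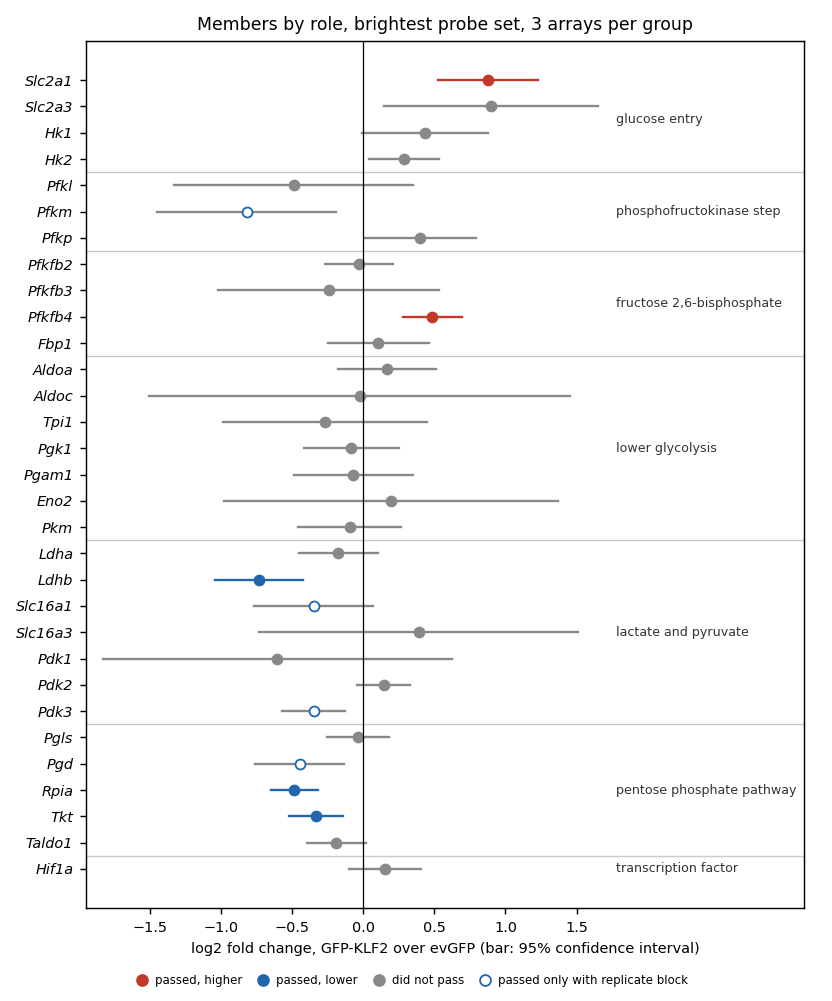
Log2 fold change of GFP-KLF2 over evGFP CTL (x axis) for the 31 measured members (y axis, by role), with 95% confidence intervals from limma, 3 arrays per group. Slc2a1 and Pfkfb4 lie to the right as passed, Ldhb, Rpia and Tkt to the left, and the 4 open circles passed only with the replicate block. The intervals of Aldoc, Eno2, Slc16a3 and Pdk1 are wide.

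The RefSeq sequences upstream of these genes are shown for 2 members that passed in opposite directions, Slc2a1 and Ldhb, and for Aldoc and Pdk1, whose values spread most between the GFP-KLF2 arrays. Each is the 250 bases before a transcript start (GRCm38.p6), read 5' to 3' on the strand of the gene. Capitals mark ACGTG or GCGTG on either strand, the core letters of HIF binding sites, so that CACGT and CACGC are the same letters read on the other strand.
Slc2a1, chr4:119108495-119108744, plus strand: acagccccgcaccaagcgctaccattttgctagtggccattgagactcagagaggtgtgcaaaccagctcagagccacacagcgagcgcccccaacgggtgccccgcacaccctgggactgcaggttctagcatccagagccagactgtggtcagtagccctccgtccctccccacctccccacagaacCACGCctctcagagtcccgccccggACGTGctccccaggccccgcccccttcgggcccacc
Ldhb, chr6:142507958-142508207, minus strand: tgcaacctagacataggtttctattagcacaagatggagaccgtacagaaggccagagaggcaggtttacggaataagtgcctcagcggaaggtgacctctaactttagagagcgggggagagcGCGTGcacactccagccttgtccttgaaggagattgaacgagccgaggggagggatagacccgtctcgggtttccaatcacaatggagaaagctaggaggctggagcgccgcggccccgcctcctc
Aldoc, chr11:78322823-78323072, plus strand: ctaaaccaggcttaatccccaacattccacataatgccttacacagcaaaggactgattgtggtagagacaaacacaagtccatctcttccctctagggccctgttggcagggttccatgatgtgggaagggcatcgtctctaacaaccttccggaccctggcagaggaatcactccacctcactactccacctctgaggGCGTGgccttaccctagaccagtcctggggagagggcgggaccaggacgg
Pdk1, chr2:71872974-71873223, plus strand: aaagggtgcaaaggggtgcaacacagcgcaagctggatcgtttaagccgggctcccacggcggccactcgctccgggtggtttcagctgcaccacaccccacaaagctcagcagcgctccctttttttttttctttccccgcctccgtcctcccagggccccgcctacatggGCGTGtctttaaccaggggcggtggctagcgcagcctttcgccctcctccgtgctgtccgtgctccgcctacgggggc
These 4 windows held 2, 1, 1 and 1 matches. RefSeq entries were found for 30 of the 31 measured members, with 45 promoters, and none was matched for Slc2a3. ACGTG or GCGTG occurred in 35 of the 45 (77.8%), beside 38.6% of 32851 promoters of all genes. The E box CACGTG, which contains ACGTG and is bound by MYC among others, was found in 15.6% of member promoters and 6.02% of all. CCNCNCCC, the letters of the CACCC boxes that KLF factors bind, was found in 75.6% and 45.9%. Member promoters also had a higher median GC content, at 60.4% beside 52.4%, and its part in these shares was not tested. All 3 motifs were searched on both strands, and a match is a description of the letters only. The HIF core letters were in all 5 promoters of the members that passed, both those that rose and those that fell.

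Glucose enters the cell through Slc2a1 (GLUT1) and Slc2a3 (GLUT3) and is trapped by the hexokinases Hk1 and Hk2. All 4 had log2 fold changes above 0, from 0.29 to 0.90, and Slc2a1 alone passed. Over all genes 6.22% rose. Slc2a1 was at 11.05, 11.09 and 11.24 in the evGFP arrays and at 12.32, 11.73 and 11.96 in the GFP-KLF2 arrays. All 3 GFP-KLF2 arrays lay above all evGFP arrays, with array 1 the highest. The rise was 1.84-fold (log2 fold change 0.88, SE 0.15, adjusted p = 0.0116). Its other 2 probe sets rose by 0.95 and 0.93. The adjusted p went to 0.0465 without evGFP replicate 1 and to 0.0502 without evGFP replicate 2, just past the threshold.

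For Slc2a3 the evGFP arrays read 10.38, 10.55 and 11.08 and the GFP-KLF2 arrays 12.04, 10.82 and 11.83. Its difference was as large as that of Slc2a1 (0.90), but GFP-KLF2 replicate 2 lay below evGFP replicate 3, and the adjusted p was 0.130 (0.0531 with the block). Without GFP-KLF2 replicate 2 it passed, at 1.27 (adjusted p = 0.0240). The next brightest of its 4 probe sets gave 0.97, with an adjusted p of 0.0954 and 0.0321 with the block. Hk2 was at 11.05, 10.98 and 11.07 in evGFP and 11.54, 11.22 and 11.21 in GFP-KLF2 CTL. These groups did not overlap, yet the difference of 0.29 had an adjusted p of 0.138. Hk1 overlapped between the groups, with a difference of 0.43 (adjusted p = 0.213).

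**Figure D2:**
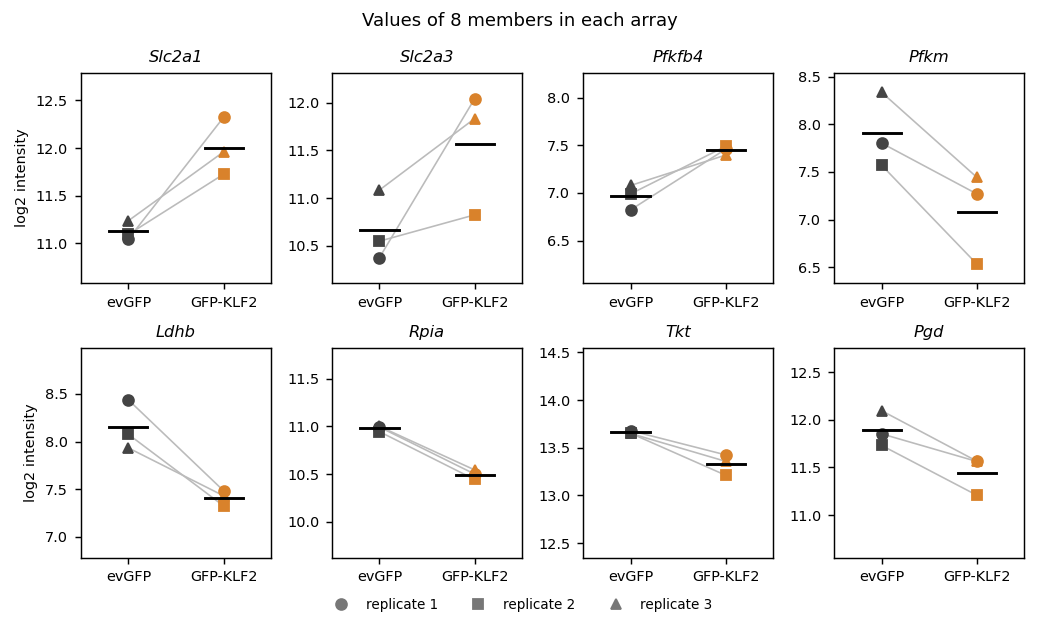
Log2 intensity (y axis, each panel spanning the same number of log2 units) of 8 members in the 3 evGFP and 3 GFP-KLF2 arrays (x axis), with bars for group means and lines joining arrays of the same replicate number. The GFP-KLF2 points of Slc2a1 and Pfkfb4 lie above and those of Pfkm, Ldhb, Rpia, Tkt and Pgd below all evGFP points. For Slc2a3 the groups overlap. For Slc2a3 and Pfkm the pairs move the same way while arrays within each group lie far apart.

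The committed step of glycolysis is made by phosphofructokinase, whose subunits are encoded by Pfkl, Pfkm and Pfkp, and the 3 genes had differences of either sign. Pfkm was at 7.80, 7.57 and 8.34 in evGFP and at 7.27, 6.53 and 7.44 in GFP-KLF2 CTL. All GFP-KLF2 values were lower, and within each pair the difference was -0.53, -1.04 and -0.89. Its difference of -0.82 (SE 0.27) had an adjusted p of 0.102 and passed with the replicate block (adjusted p = 0.00615). Pfkp showed the opposite, with 11.67, 11.61 and 11.77 in evGFP and 12.49, 11.90 and 11.85 in GFP-KLF2 CTL. Its groups did not overlap, but the difference of 0.40 did not pass (adjusted p = 0.191) and its 2 other probe sets gave 0.21 and 0.16. Pfkl gave -0.49 with an SE of 0.36 (adjusted p = 0.489), and its other probe sets gave -0.03 and -0.00.

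Phosphofructokinase is activated by a second fructose bisphosphate, which the bifunctional Pfkfb enzymes make and break down. Pfkfb4 was at 6.82, 6.99 and 7.08 in evGFP CTL and at 7.46, 7.49 and 7.40 in GFP-KLF2 CTL. The GFP-KLF2 arrays were close to each other and above all evGFP arrays. The rise was 1.40-fold (log2 fold change 0.49, SE 0.09, adjusted p = 0.0147). It missed the threshold narrowly without evGFP replicate 2, GFP-KLF2 replicate 1 or GFP-KLF2 replicate 2 (adjusted p = 0.0545, 0.0549 and 0.0543). Pfkfb4 was measured by 1 probe set. Pfkfb3, the form induced in many activated cells, overlapped between the groups (-0.24, adjusted p = 0.736). Pfkfb2 (-0.03) and Fbp1, the opposing gluconeogenic phosphatase (0.11), did not pass, and both lay under a mean of 6, as did Eno2 and Pdk2.

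In the lower part of glycolysis no gene passed. Aldoa and Aldoc encode aldolases, Tpi1 triosephosphate isomerase, Pgk1 phosphoglycerate kinase, Pgam1 phosphoglycerate mutase, Eno2 an enolase and Pkm pyruvate kinase. Their log2 fold changes ran from -0.27 for Tpi1 to 0.20 for Eno2, with a median of -0.07. For 4 of them the intervals were narrow. For Pgk1 the difference was -0.08 with a 95% confidence interval of -0.42 to 0.25, for Pkm -0.10 (-0.46 to 0.27), for Pgam1 -0.07 (-0.49 to 0.35) and for Aldoa 0.17 (-0.18 to 0.51). Differences of 2-fold thus lay outside the intervals of these 4 genes. The interval of Aldoc, from -1.51 to 1.46, did not set such a limit. Gapdh had no probe set of its own. The brightest of 3 probe sets it shares with other genes gave -0.11 (adjusted p = 0.510), and the others gave -0.35 and -0.10. In the control probe sets at its 3' end the GFP-KLF2 arrays read 14.33, 13.99 and 14.17 and the evGFP arrays 14.28, 14.28 and 14.35.

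Lactate dehydrogenase turns pyruvate into lactate and back. Ldha encodes the subunit that prevails in glycolytic cells and Ldhb the one that prevails in oxidative tissues such as heart. Ldha was at 14.04, 14.02 and 14.04 in evGFP CTL and at 14.06, 13.60 and 13.92 in GFP-KLF2 CTL. It overlapped between the groups, with a difference of -0.18 (95% confidence interval -0.46 to 0.10, adjusted p = 0.449). Ldha lay near the upper end of the signal (mean 13.95), as did Pgk1 (13.73), Aldoa (13.68), Tkt (13.50) and Tpi1 (13.16). Saturation there was not tested.

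Ldhb had the largest of the 3 falls. Its brightest probe set was at 8.44, 8.08 and 7.93 in evGFP and at 7.48, 7.32 and 7.43 in GFP-KLF2 CTL. All GFP-KLF2 arrays were below all evGFP arrays, and all 3 pairs fell. The fall was 1.67-fold (log2 fold change -0.74, SE 0.13, adjusted p = 0.0141). The other 3 probe sets fell further, 2.41-fold, 3.07-fold and 6.09-fold, and each passed (adjusted p = 0.0258, 0.00800 and 0.00248). The size of the fall therefore depended on the probe set, while its direction did not. The probe set with the largest fall ended at a mean of 4.67, not far above the lower quartile of the arrays (4.18 to 4.25). The brightest probe set missed the threshold without evGFP replicate 2 (adjusted p = 0.0473) or GFP-KLF2 replicate 2 (0.0530). The probe sets with falls of 3.07-fold and 6.09-fold passed whichever array was left out. Those with falls of 2.41-fold and 3.07-fold have names ending in _x_at, which marks possible cross-hybridisation. Its part in these values was not tested.

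**Figure D3:**
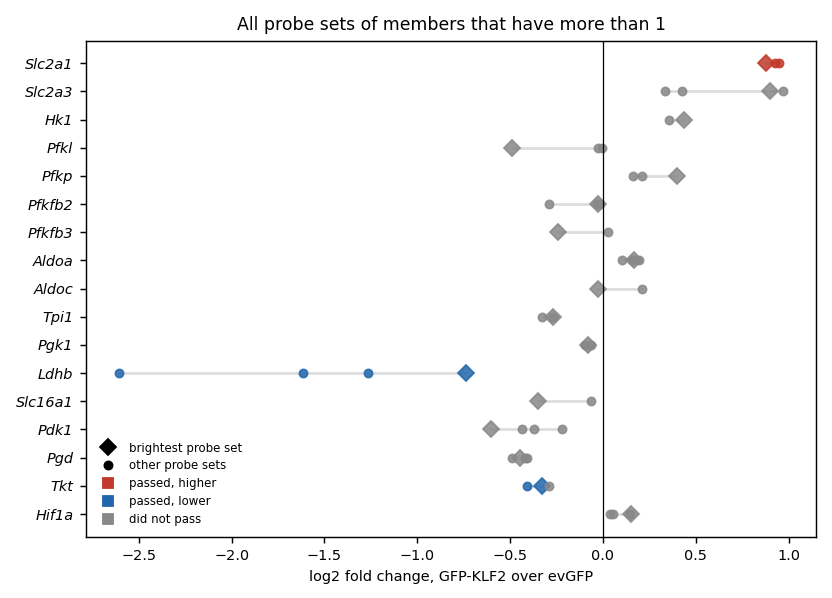
Log2 fold change of GFP-KLF2 over evGFP CTL (x axis) for every probe set of the 17 members that have more than 1 (y axis), diamonds marking the brightest. The 4 probe sets of Ldhb all passed but spread from -0.74 to -2.61, the 3 of Slc2a1 lie close together, and for Pfkl and Slc16a1 the dimmer probe sets lie nearer to 0.

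Lactate leaves the cell through Slc16a1 (MCT1) and Slc16a3 (MCT4). Slc16a1 was lower within each pair, by -0.35, -0.51 and -0.19, and its difference of -0.35 had an adjusted p of 0.293, or 0.0444 with the replicate block. Slc16a3 went from 6.10, 6.10 and 6.79 in evGFP to 7.60, 5.55 and 7.01 in GFP-KLF2 CTL. The GFP-KLF2 arrays held both the highest and the lowest value, and the difference of 0.39 did not pass (adjusted p = 0.703).

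The kinases Pdk1, Pdk2 and Pdk3 shut off pyruvate dehydrogenase and so limit the flow of pyruvate into the citric acid cycle. Pdk3 was at 10.24, 10.20 and 10.34 in evGFP and at 10.05, 9.76 and 9.93 in GFP-KLF2 CTL. Its values did not overlap, and its difference of -0.35 fell just short of the threshold (adjusted p = 0.0579, or 0.0381 with the block). Pdk1 was at 10.44, 10.33 and 10.74 in evGFP and at 11.12, 8.69 and 9.89 in GFP-KLF2 CTL, with a difference of -0.60 and an SE of 0.53 (adjusted p = 0.567). Pdk2 was dim (0.14, adjusted p = 0.337).

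Of the 5 measured genes of the pentose phosphate pathway all had log2 fold changes below 0, from -0.48 to -0.04, and 2 fell. Over all genes 8.35% fell, and the median log2 fold change was -0.01. Rpia, which makes ribose phosphate from ribulose phosphate, was at 10.99, 10.95 and 11.00 in evGFP and at 10.50, 10.44 and 10.54 in GFP-KLF2 CTL. The arrays of each group lay close together, and the groups were far apart by comparison. The fall was 1.40-fold (log2 fold change -0.48, SE 0.07, adjusted p = 0.00716). Rpia was the only member to pass at its brightest probe set whichever array was left out (adjusted p = 0.0167 to 0.0315). It was measured by 1 probe set.

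Tkt, the transketolase that links the pathway to glycolysis, was at 13.68, 13.65 and 13.65 in evGFP and at 13.42, 13.21 and 13.36 in GFP-KLF2 CTL. Again no values overlapped. The fall was small, 1.26-fold (log2 fold change -0.33, SE 0.08, adjusted p = 0.0411). It did not pass without any 1 of the 6 arrays (adjusted p = 0.0654 to 0.119). A second probe set fell by 0.41 (adjusted p = 0.0322), and a dim one gave -0.29 (adjusted p = 0.421).

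Pgd, which makes NADPH in the oxidative arm, was at 11.85, 11.73 and 12.10 in evGFP and at 11.56, 11.21 and 11.57 in GFP-KLF2 CTL. All GFP-KLF2 values were lower. Its difference of -0.45 had an adjusted p of 0.0776, and 0.0172 with the replicate block, and its other 3 probe sets gave -0.41 to -0.49. Taldo1, the transaldolase, did not overlap between the groups either (-0.19, adjusted p = 0.245). Pgls, the lactonase of the oxidative arm, gave -0.04 with a 95% confidence interval of -0.26 to 0.18. G6pdx, the entry enzyme, was not analysed here.

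Hif1a, the transcription factor among the members, was at 12.36, 12.40 and 12.63 in evGFP and at 12.53, 12.55 and 12.77 in GFP-KLF2 CTL. The groups overlapped, and the difference of 0.15 did not pass (adjusted p = 0.462), nor did its other 3 probe sets. RNA does not measure the HIF1 protein, whose level is set mainly by its breakdown.

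Many members varied more among the GFP-KLF2 arrays than among the evGFP arrays. This was noticed in the values and is given as a description. The SD was larger in GFP-KLF2 CTL for 23 of the 31 members (74.2%), beside 48.5% of all genes, and its median over members was 0.27 in GFP-KLF2 and 0.15 in evGFP CTL. Over all genes both medians were 0.11. Of the members 19 had a mean above the 90th percentile of probe sets. The genes set beside them, here and below, were not matched for level, and its part in these shares was not tested. GFP-KLF2 replicate 2 had the lowest of all 6 values for 18 members (58.1%, beside 19.8% of all genes). GFP-KLF2 replicate 1 had the highest of all 6 for 15 members, 48.4% beside 12.9% of all genes. The same 3 arrays thus came in the order 1, 3, 2 for 19 members, 61.3% beside 13.7% of all genes. The evGFP arrays had a pattern as well. Replicate 3 was the highest of the 3 evGFP arrays for 24 of the 31 members, beside 34.1% of all genes.

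GFP-KLF2 replicate 1 lay at least 1 log2 unit above GFP-KLF2 replicate 2 for 8 members, 25.8% of those measured, beside 0.467% of all genes. Those 8 were Aldoc (2.66), Pdk1 (2.44), Slc16a3 (2.05), Pfkl (1.56), Eno2 (1.50), Pfkfb3 (1.46), Tpi1 (1.33) and Slc2a3 (1.22). None of the 8 passed in the comparison of the groups. Aldoc was at 7.49, 7.88 and 8.82 in the evGFP arrays, and at 9.31, 6.65 and 8.16 in the GFP-KLF2 arrays. Tpi1 was at 13.22, 13.16 and 13.51 in evGFP and 13.58, 12.26 and 13.24 in GFP-KLF2 CTL. For both genes GFP-KLF2 replicate 1 was the highest of the 6 arrays and GFP-KLF2 replicate 2 the lowest. At the other end, Rpia, Pfkfb4, Hif1a, Pdk2 and Pfkfb2 differed between these arrays by 0.15 or less. The HIF core letters were in 7 of 10 promoters of the genes with a difference of at least 1, Slc2a3 not among them. They were in 28 of 35 promoters of the other members.

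**Figure D4:**
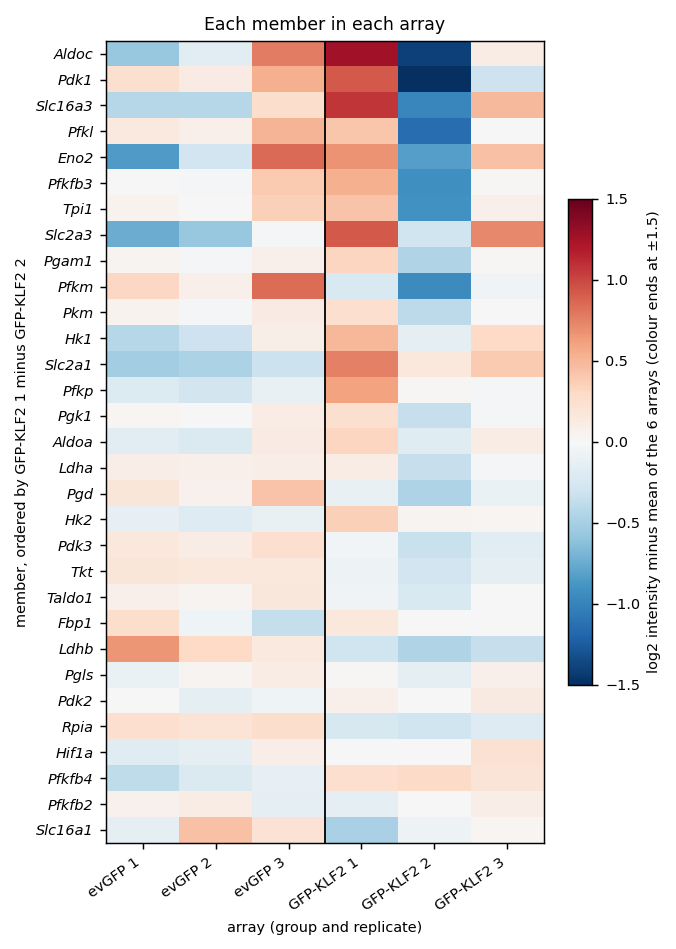
Log2 intensity minus the mean of the 6 arrays (colour, red above and blue below, ending at 1.5 units) for the 31 members (y axis, ordered by GFP-KLF2 replicate 1 minus replicate 2) in each array (x axis). In the upper rows, from Aldoc to Slc2a3, GFP-KLF2 replicate 1 is red and GFP-KLF2 replicate 2 blue, whereas Rpia and Ldhb near the foot are blue in all 3 GFP-KLF2 arrays.

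The replicate pairs differed accordingly. The median difference of GFP-KLF2 minus evGFP over the members was 0.21 in pair 1, -0.42 in pair 2 and -0.12 in pair 3, while the medians over all genes were -0.03, -0.02 and -0.00. In pair 1, 21 members were higher in GFP-KLF2 CTL, in pair 2 only 10 and in pair 3 only 11. Without GFP-KLF2 replicate 2 the median log2 fold change of the members was 0.12 in place of -0.07, so that the sign of this median rested on 1 array.

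Other genes that respond to HIF in many cell types were read beside the members. Of 15 measured HIF targets outside glycolysis, Ndrg1 (log2 fold change 1.45, adjusted p = 0.00331), a stress-induced gene, and Kdm3a (0.44, adjusted p = 0.0113), a histone demethylase, rose and none fell. Over all genes 6.22% rose and 8.35% fell. Kdm3a did not pass without GFP-KLF2 replicate 1 (adjusted p = 0.0472). GFP-KLF2 replicate 1 lay at least 1 log2 unit above replicate 2 for 5 of the 15. These were Ak4, Ankrd37, P4ha2, Vegfa and P4ha1, which were named after their values were seen. The median of GFP-KLF2 replicate 1 minus replicate 2 was 0.46 over the 15, beside 0.51 over the members and -0.01 over all genes. None of 8 genes that encode or regulate HIF passed in limma, and 2 of them, Epas1 and Vhl, had an unadjusted p under 0.05. Epas1, which encodes HIF2 alpha, gave 1.85 with an adjusted p of 0.0851, or 0.0108 with the replicate block. Over these 8 genes the median of GFP-KLF2 replicate 1 minus replicate 2 was 0.06, and 2 of them reached at least 1.

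Outside the members, 40 of 43 listed genes of glycolysis, sugar transport and pyruvate use were measured, and 2 rose and 6 fell. Of all genes 6.22% rose and 8.35% fell. GFP-KLF2 replicate 1 lay at least 1 log2 unit above replicate 2 for 0 of these 40. The median of that difference over them was -0.02. Slc2a6, a glucose transporter of lysosomal membranes, rose by 1.33 (adjusted p = 0.0189) and Pdp1, a phosphatase that activates pyruvate dehydrogenase, by 0.82 (adjusted p = 0.00837). The falls were -0.48 for the urate and sugar transporter Slc2a9, -0.46 for Pdp2, a second pyruvate dehydrogenase phosphatase, -0.43 for Rpe, an epimerase of the pentose phosphate pathway, and -0.38 for Mpc1, a subunit of the mitochondrial pyruvate carrier. Pdha1 and Pdhb, which encode subunits of pyruvate dehydrogenase, fell by 0.34 and 0.28. Slc2a9 and Pdp1 passed whichever array was left out. Slc2a6 did not pass without evGFP replicate 2 or GFP-KLF2 replicate 1 or 2 (adjusted p = 0.0514 to 0.0671), and Rpe not without evGFP replicate 1 or GFP-KLF2 replicate 1 or 2 (0.0543 to 0.0609). Pdp2 passed only without evGFP replicate 1, and Mpc1, Pdha1 and Pdhb did not pass without any 1 of the 6 arrays. With the replicate block the adjusted p of Pdhb was 0.0490, that of Eno3, a muscle enolase that gave 0.57, 0.00948, and that of Tigar, a phosphatase that lowers the phosphofructokinase activator and gave -0.33, 0.0452.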

How the data were processed

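RNA of sorted P14 CTL was measured on 6 Affymetrix arrays, 3 evGFP and 3 GFP-KLF2. The authors used RMA and deposited 1 normalised intensity for each probe set in each array, on a linear scale (5.74 to 33637.8). Per the labels and the methods, limma was then used, and tool versions are not given in the sources used here.

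Here log2 was taken, 64 control probe sets were removed from 45101, and GFP-KLF2 was compared with evGFP by limma 3.58.1 in R 4.3.3, with a constant per group, moderated variances and 2-sided tests, adjusted over 45037 probe sets. The methods print a threshold of 0.046%, and 0.046 was used with the printed value as an alternative. Of the probe sets 932 are annotated to several genes and 9160 to none. A gene was read by its brightest probe set. The fit was tested on simulated data.

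The members and lists were chosen with earlier results of these data known. All members were to be named, and of each other list up to 6 of those that passed, taken by the size of the change, with marker lists summarised. Genes named for a call under the block or an unadjusted p were picked with their values in view, as were the genes of the array pattern.

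Groups and replicate numbers came from the labels. Arrays with the same number deviated together from their group means (correlations over probe sets 0.33, 0.44 and 0.47). Arrays with unlike numbers gave -0.38 to 0.06. Taking out the group means ties these correlations to each other, and they were not taken over the members alone. The numbers were taken to pair the samples, and the block is printed where it changes a call. The other alternatives were thresholds, the probe set of a gene, dim probe sets, scaling, an offset of 16, variance model, array weights and leaving out each array. Promoters came from RefSeq with GRCm38.p6.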

Additional observations from a re-analysis of the deposited data

How the results depend on the processing

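Of 576 member values under 19 alternatives, 542 kept their side of the threshold, and 25 kept the direction but no longer passed. A further 9 passed in addition, and none that passed changed sign. A sign change was seen in 23 values of 12 members, none of which passed. At the adjusted p of 0.00046 that the methods print, limma called 0 members and 0 member probe sets in either direction, while at an unadjusted p under 0.05 it counted 5 members higher and 6 lower. With a fold of at least 2 required, 0 members passed, and 3 probe sets, all of Ldhb, were lower and 0 higher. Without probe sets whose names end in _x_at, _s_at or _a_at, 2 members were lower and 2 higher, and 22 members remained measured. Only some of these endings mark possible cross-hybridisation. Ldhb was not among the 22, since each of its probe sets has such a name. With the replicate block, 7 members and 14 of their probe sets were lower, and no member that passed was lost. Leaving out 1 array gave 1 to 2 members lower and 0 to 2 higher, 3 to 5 probe sets lower and 0 to 6 higher. Among these alternatives the share of all genes is given only for the block. The other counts therefore do not compare the members with all genes. No member passed as higher without evGFP replicate 2, and only Rpia fell without evGFP replicate 2 or GFP-KLF2 replicate 2. The median log2 fold change of the members ran from -0.21 to 0.12. Tkt was lost with the mean of all probe sets (adjusted p = 0.0579) and with cyclic loess (0.0879), and Pdk3 passed with the mean of all probe sets, without dim probe sets, with the offset and with an intensity trend (0.0343 to 0.0438). Signal limits what can be seen for the 4 members with a mean under 6.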
